A study of Mus musculus with 6 samples.

Results

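The transcription factors described here are 7 interferon regulatory factors (IRFs) and 2 signal transducers and activators of transcription (STATs): Irf1, Irf2, Irf3, Irf5, Irf7, Irf8, Irf9, Stat2 and Stat3. They were taken by symbol from a gene count table with 46095 rows, and all 9 had a row and passed the filter on low counts. The libraries came from bone marrow-derived macrophages (BMDM) of C57BL/6 mice at postnatal day 56, with 3 libraries from Cd226-/- mice and 3 from wild-type (WT) mice. CD226 (DNAM-1) is an activating adhesion receptor of lymphoid and myeloid cells. Both genotypes received the same culture, 7 days in M-CSF at 20 ng/ml followed by 24 h of IFN-γ at 20 ng/mL with LPS at 100 ng/mL, so no unstimulated library is among those used here and the induction of these factors by the stimulus cannot be read from the table. How the Cd226 allele was made is not in the labels, nor is whether each library is a mouse or a culture of its own, so the p-values rest on a spread between samples that may be only technical.

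IRFs share a DNA-binding domain that reads GAAA repeats, the core of the interferon-stimulated response element (ISRE). STATs are latent cytoplasmic proteins that Janus kinases phosphorylate at cytokine receptors, after which they dimerise and enter the nucleus. IFN-γ acts through STAT dimers on the gamma-activated site (GAS), and type I interferon acts through ISGF3, a complex that holds STAT2 and IRF9, on the ISRE. LPS activates IRF3 and IRF5 through the adaptors TRIF and MyD88 and so starts an interferon and cytokine loop on top of the IFN-γ signal.

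The promoters of 4 members are shown because they hold matches to the elements through which this stimulus is known to act. Each run is the 250 bases upstream of the RefSeq start site (GRCm38.p6, plus strand, 5′ to 3′). Capitals mark a GAS match (TTCNNNGAA), an ISRE match (GAAA, any 2 bases, GAAA) or a match to the NF-κB consensus, searched on both strands. The windows are chr11:53769764-53770013 for Irf1, chr8:120736108-120736357 for Irf8, chr10:128270248-128270497 for Stat2 and chr8:46739495-46739744 for Irf2.
Irf1: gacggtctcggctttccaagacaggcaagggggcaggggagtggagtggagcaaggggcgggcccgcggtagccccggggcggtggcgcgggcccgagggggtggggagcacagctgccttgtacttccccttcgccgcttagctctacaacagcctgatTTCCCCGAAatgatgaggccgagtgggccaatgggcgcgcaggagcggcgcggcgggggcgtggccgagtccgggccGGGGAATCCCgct
Irf8: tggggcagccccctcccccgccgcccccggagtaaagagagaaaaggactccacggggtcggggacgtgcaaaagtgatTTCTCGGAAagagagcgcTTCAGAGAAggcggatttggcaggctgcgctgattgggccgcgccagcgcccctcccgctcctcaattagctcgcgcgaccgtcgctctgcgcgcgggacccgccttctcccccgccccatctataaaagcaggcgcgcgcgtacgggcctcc
Stat2: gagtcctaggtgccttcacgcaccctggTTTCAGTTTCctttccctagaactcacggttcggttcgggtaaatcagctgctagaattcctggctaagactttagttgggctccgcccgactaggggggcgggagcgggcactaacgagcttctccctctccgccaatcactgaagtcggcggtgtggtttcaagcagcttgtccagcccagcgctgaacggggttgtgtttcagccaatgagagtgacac
Irf2: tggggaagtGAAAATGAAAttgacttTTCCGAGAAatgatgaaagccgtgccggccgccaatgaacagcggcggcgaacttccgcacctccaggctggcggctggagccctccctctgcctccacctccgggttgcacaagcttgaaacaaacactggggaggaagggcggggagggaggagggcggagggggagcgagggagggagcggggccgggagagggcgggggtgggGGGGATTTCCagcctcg

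Counted back from the start site, the capitals in Irf1 begin at base -90 (GAS) and base -13 (NF-κB), and those in Irf8 at bases -171 and -153 (both GAS). The ISRE match of Stat2 begins at base -222. Irf2 has all 3 kinds, the ISRE at base -241, the GAS at base -224 and the NF-κB match at base -17. No 2 of these matches overlap. RefSeq gives 12 promoters for the 9 genes, of which 3 held a GAS match, 2 an ISRE match and 2 an NF-κB match. Over all 32851 promoters in that table the shares were 7.02% for GAS, 2.98% for ISRE and 3.90% for NF-κB. A match is a description of letters and not evidence of binding. The windows of Irf3, Irf5, Irf7, Irf9 and Stat3 did not hold these letters, nor did the second RefSeq windows of Irf1 and Irf8. The Irf5 window (chr6:29526375-29526624) lies inside the gene range given below, and the windows of Irf7 and Stat3 overlap theirs. For Irf5, Irf7 and Stat3 the sequence searched was therefore not wholly upstream of the gene range.

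Total counts ran from 16925955 to 18867799 in Cd226-/- libraries and from 16838527 to 21658061 in WT libraries. Of 13215 genes tested with edgeR's quasi-likelihood test, 30.9% differed at a Benjamini-Hochberg adjusted p under 0.05. Of the tested genes 16.1% were higher and 14.8% lower in Cd226-/-, or 1773 genes higher and 2764 lower with library-size scaling in place of 2130 and 1956. Cd226 itself had 11, 10 and 8 counts in Cd226-/- and 5, 17 and 23 counts in WT, too few to check the labels. Summed TMM-scaled CPM (counts scaled to a common library size) of 10 macrophage markers overlapped, at 20237 to 20992 in Cd226-/- and 19018 to 21052 in WT. Of these 10 markers 4 were called higher, 5 lower and 1 was not called. The genotypes did not overlap for 9 of them, against 44.3% of tested genes. Lyz2 had the highest level of the list, so the overlap of the sums does not mean that single markers were alike. Cd226-/- replicates 2 and 3 were more alike than any other pair of libraries of 1 genotype, with a chi-square per degree of freedom of 2.17 against 3.79 to 7.76. The same replicates 2 and 3 held transcripts of liver cells that were at or near 0 in the other libraries: Alb, encoding albumin, had 0, 266 and 279 counts in Cd226-/- replicates 1 to 3 and 0 in every WT library, and Ahsg had 0, 31 and 48 counts in Cd226-/- and 0 in every WT library. The 8 hepatocyte markers summed to 245 to 250.1 CPM in Cd226-/- and 215 to 224 CPM in WT, mostly from Trf, which macrophages also express and which was not called, and their part in the results was not tested. The members, the counts of called genes in the lists and some single genes were therefore also computed with replicate 1 as the lone Cd226-/- library, a fit in which that library is assumed to vary like the WT libraries; the ratios, levels per length, marker sums and nearest patterns were not.

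Most of these factors were more abundant in Cd226-/- macrophages, by modest amounts. Irf8 rose 1.55-fold, and Stat3, Irf1, Stat2 and Irf7 rose 1.16-fold to 1.24-fold. Irf9, the DNA-binding subunit of ISGF3, fell slightly, and Irf2, Irf3 and Irf5 did not pass the test. Thus 5 of the 9 were called higher and 1 lower, against 16.1% and 14.8% of all tested genes. Their median log2 fold change was 0.22, against -0.0045 over all tested genes. The libraries of the genotypes did not overlap for 7 of the 9, against 44.3% of tested genes. The 5 rises were called under all 15 alternative settings, of which 1 has a lone Cd226-/- library and so no spread of its own, whereas the call of Irf9 was lost under 7 of them.

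By RefSeq (GRCm38.p6) the genes that rose lie at chr8:120736358-120756694 (Irf8), chr11:53770014-53778374 (Irf1), chr11:100886806-100939594 (Stat3), chr10:128270498-128292853 (Stat2) and chr7:141263183-141266499 (Irf7). Irf9 lies at chr14:55603985-55610030, and the genes not called at chr8:46739745-46847458 (Irf2), chr7:44997648-45002848 (Irf3) and chr6:29526130-29541869 (Irf5). The counts are per gene and give no exon or transcript.

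**Figure D1:**
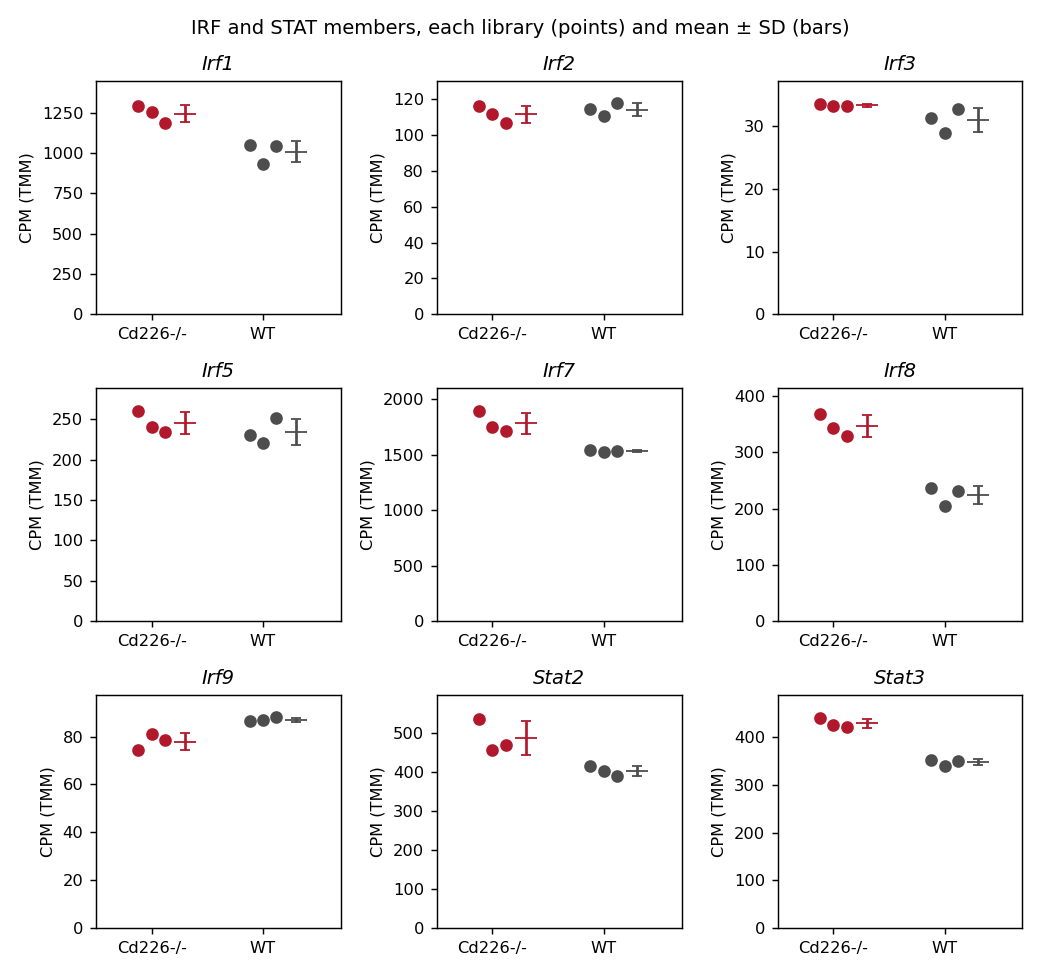
TMM-scaled CPM of each member in the 3 Cd226-/- libraries (red, left) and the 3 WT libraries (grey, right), with the mean ± SD beside the points and each axis starting at 0. Relative to its level the widest gap is that of Irf8, with 329 to 369 CPM in Cd226-/- and 205 to 236 CPM in WT.

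Irf8 encodes a myeloid lineage factor that pairs with PU.1 and directs monocyte and dendritic cell fates. It had 369, 343 and 329 CPM in Cd226-/- replicates 1 to 3, against 236, 205 and 231 CPM in WT replicates 1 to 3. Every Cd226-/- library lay above every WT library. The log2 fold change was 0.63 ± 0.058 (SE, adjusted p = 4.24e-08, edgeR), and over the alternatives it ran from 0.57 to 0.72. The change was larger than the spread within either genotype (347 ± 20.2 CPM in Cd226-/- and 224 ± 16.9 CPM in WT, SD, n = 3 each).

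Because B cells and dendritic cells also express Irf8, their markers were read beside it. All 7 tested B cell markers rose, against 16.1% of all tested genes, among them Ms4a1 (3.99-fold). Their list, in which Ighm was listed at 0 in all libraries, summed to 44.8 to 56.8 CPM in Cd226-/- and 18.3 to 22.7 CPM in WT. Of the conventional dendritic cell markers 3 of 6 tested rose and none fell, with sums of 102 to 111 CPM in Cd226-/- and 69.8 to 84.0 CPM in WT. These were Batf3 (1.88-fold), a factor of the cross-presenting subset, the chemokine receptor gene Ccr7 (1.46-fold) and Itgax (1.30-fold). Ccr7 averaged 63.6 CPM in Cd226-/- and 43.4 CPM in WT, and Itgax 32.6 CPM in Cd226-/- and 25.1 CPM in WT. Ccr7 and Itgax thus made up most of these sums. Flt3 was not called (log2 fold change 0.71, adjusted p = 0.12, edgeR). Zbtb46 was not called either, at 4.38 CPM in Cd226-/- and 4.28 CPM in WT (adjusted p = 0.943, edgeR). The surface markers of the cross-presenting subset were low: Clec9a averaged 0.651 ± 0.397 CPM in Cd226-/- and 0.821 ± 0.310 CPM in WT (SD, n = 3 each), and Xcr1 averaged 0.115 CPM in Cd226-/- and 0 in WT. For plasmacytoid dendritic cells 3 of 5 tested markers rose, with sums of 632 to 695 CPM in Cd226-/- and 474 to 489 CPM in WT. Bst2, which is also interferon-stimulated, made up most of these sums, while Siglech averaged 0.0200 CPM in Cd226-/- and 0 in WT. The part of these cells in the Irf8 result was not tested. In bulk RNA more cells of a type and more RNA per cell cannot be told apart.

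Irf1 encodes the activator that IFN-γ induces and that drives genes such as Nos2 and the guanylate-binding proteins. It had 1291, 1258 and 1189 CPM in Cd226-/- and 1052, 933 and 1043 CPM in WT. The groups did not overlap, and Irf1 rose 1.23-fold (log2 fold change 0.30 ± 0.055 (SE), adjusted p = 2.05e-04, edgeR). Irf1 shares 3% of its exon bases with Gm17334 on the opposite strand, which has no row among the counts, so reads of the shared bases are uncertain. Irf2, whose product binds the same sites and classically opposes IRF1, had 116, 112 and 107 CPM in Cd226-/- and 114, 110.4 and 118 CPM in WT. Its libraries overlapped and it was not called (log2 fold change -0.035 ± 0.053 (SE), adjusted p = 0.653). With replicate 1 as the only Cd226-/- library the sign turned (0.027, adjusted p = 0.835).

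Irf7, the main inducer of IFN-α genes and itself interferon-stimulated, had 1894, 1749.5 and 1714 CPM in Cd226-/- and 1547, 1526 and 1532 CPM in WT. The WT libraries lay close together (1535 ± 11.1 CPM, SD, n = 3), and all 3 Cd226-/- libraries were above them. Irf7 rose 1.16-fold (log2 fold change 0.22 ± 0.051 (SE), adjusted p = 0.00246, edgeR). Irf3 encodes the constitutive factor that the kinases TBK1 and IKKε activate to start Ifnb1 transcription. It had 33.6, 33.2 and 33.3 CPM in Cd226-/- and 31.4, 29.0 and 32.7 CPM in WT, and although the groups did not overlap it was not called (log2 fold change 0.10 ± 0.076 (SE), adjusted p = 0.324). Irf5, which acts downstream of MyD88 on Il12 and Il6 genes, had 261, 241 and 234 CPM in Cd226-/- and 230.4, 221 and 252 CPM in WT. The genotypes overlapped, and Irf5, which shares 9.48% of its exon bases with Tnpo3 on the opposite strand, was not called (log2 fold change 0.066 ± 0.056 (SE), adjusted p = 0.395).

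Stat2 and Irf9 encode subunits of ISGF3, and they moved in opposite directions. Stat2 had 536, 455 and 469 CPM in Cd226-/- and 415, 402 and 390.5 CPM in WT. All Cd226-/- libraries were above WT, replicate 1 the furthest. Stat2 rose 1.21-fold (log2 fold change 0.27 ± 0.057 (SE), adjusted p = 9.24e-04, edgeR), with 0.20 without Cd226-/- replicate 1 and 0.42 with that library as the only one of its genotype. Irf9 had 74.2, 81.1 and 78.4 CPM in Cd226-/- and 86.4, 86.9 and 88.0 CPM in WT. The groups did not overlap, and the log2 fold change was -0.16 ± 0.055 (SE, adjusted p = 0.0293, edgeR). The call was lost without Cd226-/- replicate 1 (adjusted p = 0.0648) or 3 (0.0768), without WT replicate 1 (0.0659), 2 (0.0572) or 3 (0.0821), and by DESeq2's Wald test (0.0633). The range over all alternatives was 0.0053 to 0.0821. Irf9 shares 3.97% of its exon bases with Rnf31 on the same strand, which rose (log2 fold change 0.21 ± 0.065 (SE), adjusted p = 0.0164), so reads of the shared bases are uncertain.

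Stat3, the factor through which IL-6 and IL-10 family cytokines act, had 440.1, 426 and 422 CPM in Cd226-/- and 353, 341 and 349.8 CPM in WT. The libraries of each genotype lay close together and the groups were far apart. Stat3 rose 1.24-fold (log2 fold change 0.30 ± 0.047 (SE), adjusted p = 3.51e-05, edgeR), with 0.25 to 0.35 over the alternatives. It shares 1.16% of its exon bases with Stat5a on the opposite strand, which was not called.

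**Figure D2:**
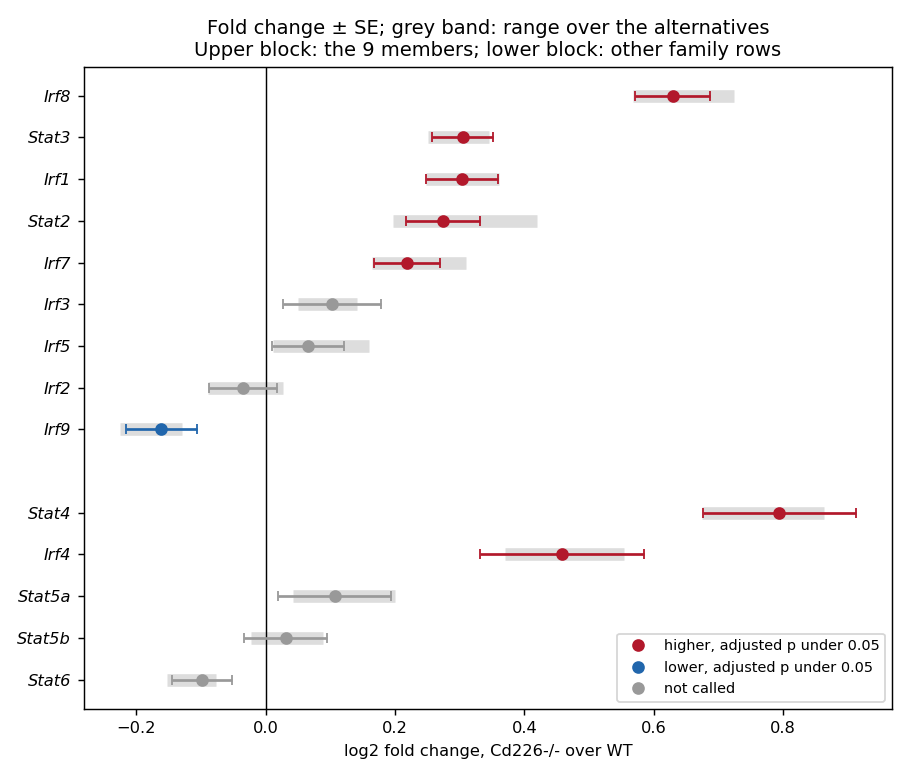
Log2 fold change, Cd226-/- over WT, with its SE (bars) for the 9 members (upper block) and 5 other family genes (lower block). Grey bands span the alternatives; red and blue mark genes called higher or lower, and only Irf9 among the members is called lower, at -0.16.

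Ratios of counts within a library do not depend on how libraries are scaled, and 7 were computed after the values were seen. The Stat2 to Irf9 ratio was 7.22, 5.62 and 5.98 in Cd226-/- libraries and 4.81, 4.63 and 4.44 in WT libraries. The Irf1 to Irf2 ratio was 11.1, 11.3 and 11.1 in Cd226-/- and 9.20, 8.44 and 8.88 in WT, and was higher in every Cd226-/- library. Irf8 relative to Irf5 stood at 1.41, 1.42 and 1.40 in Cd226-/- and at 1.03, 0.927 and 0.919 in WT. In these 3 ratios no Cd226-/- library overlapped WT, and the exact two-sided permutation test gave p = 0.1, the smallest that 3 against 3 allows (Benjamini-Hochberg adjusted p = 0.175 over the 7). The Stat3 to Stat2 ratio, by contrast, overlapped, at 0.820 to 0.936 in Cd226-/- and 0.847 to 0.896 in WT (exact permutation p = 0.6, adjusted p = 0.6). Irf8 to Irf4 also overlapped, at 27.7 to 30.7 in Cd226-/- and 23.9 to 31.5 in WT (exact permutation p = 0.4, adjusted p = 0.467). Irf7 to Irf3 overlapped too, at 51.5 to 56.3 in Cd226-/- and 46.8 to 52.6 in WT (exact permutation p = 0.2, adjusted p = 0.28).

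**Figure D3:**
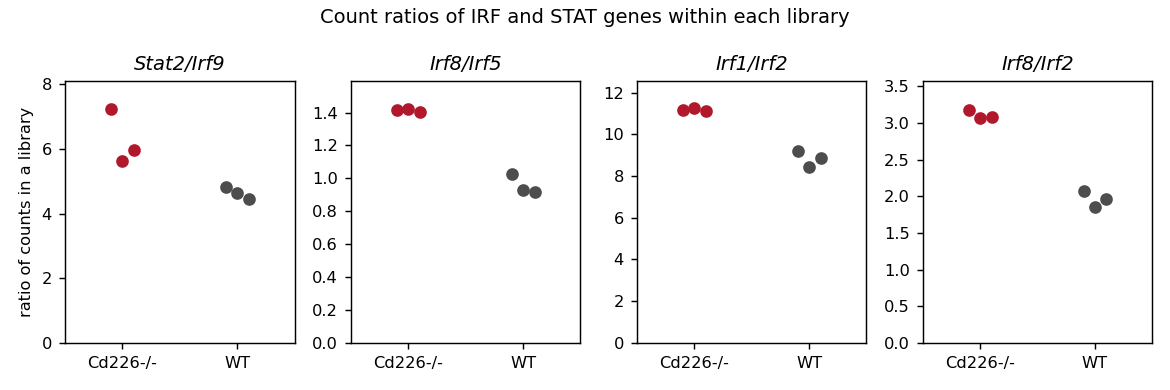
Ratio of read counts between pairs of IRF and STAT genes in each of the 3 Cd226-/- libraries (red, left) and the 3 WT libraries (grey, right), for the 4 of 7 ratios whose genotypes did not overlap, shown for that reason. In these 4 every Cd226-/- library lies above every WT library; the ratio compares raw counts and is not a ratio of molecules.

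Per kilobase of exon the members spanned a wide range. Irf7 was the most abundant (746 ± 39.8 CPM per kb in Cd226-/- and 641 ± 4.64 in WT, SD, n = 3 each), followed by Irf1 (373 ± 15.6 in Cd226-/- and 302 ± 20.0 in WT). Stat2 came next (111 ± 9.88 in Cd226-/- and 91.6 ± 2.81 in WT). Irf8 had 101 ± 5.88 CPM per kb in Cd226-/- and 65.3 ± 4.91 in WT, and Irf5 had 92.7 ± 5.18 in Cd226-/- and 88.5 ± 5.90 in WT. In Cd226-/- libraries the ranges of Irf8 (95.8 to 107 CPM per kb) and Irf5 (88.5 to 98.5) overlapped, while in WT libraries Irf8 stood below Irf5 without overlap (59.7 to 68.8 for Irf8 and 83.5 to 95.01 for Irf5). Neighbours that did not differ beyond their spread were Stat2 and Irf8, and Irf8 and Irf5, in Cd226-/-, and Stat2 and Irf5 in WT. Stat3 (69.0 ± 1.499 in Cd226-/- and 55.8 ± 1.03 in WT), Irf2 (44.6 ± 1.82 in Cd226-/- and 45.7 ± 1.42 in WT), Irf9 (25.1 ± 1.11 in Cd226-/- and 28.1 ± 0.267 in WT) and Irf3 (15.2 ± 0.100 in Cd226-/- and 14.2 ± 0.862 in WT) closed the order in both genotypes. Exon lengths are those of GENCODE M21, which may not be the annotation behind the counts.

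**Figure D4:**
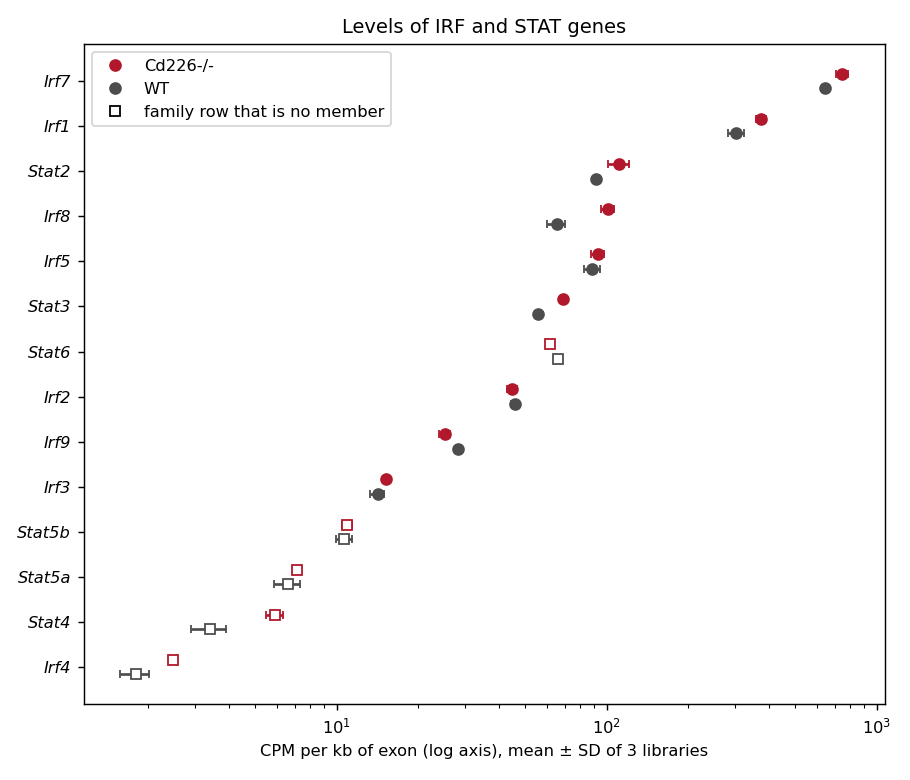
Mean ± SD of CPM per kilobase of exon on a log axis in Cd226-/- (red, above) and WT (grey, below), for the members (filled) and other IRF and STAT genes (open). Irf7 and Irf1 lie at the top and Irf3 is the lowest member, at 15.2 in Cd226-/- and 14.2 in WT.

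The rest of the family gave a mixed picture. Stat4, which relays IL-12 signals, rose 1.73-fold (18.6 ± 1.36 CPM in Cd226-/- and 10.7 ± 1.62 CPM in WT, SD, n = 3 each; adjusted p = 2.12e-05, edgeR), and shares 32.8% of its exon bases with another gene model. Irf4, a partner of PU.1 in B cells and alternatively activated macrophages, rose 1.37-fold (11.8 ± 0.228 CPM in Cd226-/- and 8.58 ± 1.06 CPM in WT; adjusted p = 0.00833), but its call was lost when WT replicate 1 was left out (0.0524) or when replicate 1 alone stood for Cd226-/- (0.059); the rise of B cell markers given above applies to it as well. Stat5a, Stat5b and Stat6 were not called (log2 fold changes 0.11, 0.031 and -0.099), except Stat6 with library-size scaling (-0.15, adjusted p = 0.0102).

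The counts of the lists that follow stand beside 16.1% of all tested genes called higher and 14.8% called lower. Upstream of the STATs, 3 of the 4 Janus kinases rose and none fell. Jak2, a kinase of the IFN-γ receptor, rose 1.43-fold (579 ± 49.4 CPM in Cd226-/- and 404 ± 4.20 CPM in WT, SD, n = 3 each), Jak3 1.27-fold and Jak1 1.15-fold. Tyk2 was not called (log2 fold change 0.12, adjusted p = 0.0722, edgeR). Of 17 receptor subunits that signal through STATs, 6 rose and 2 fell, with a median log2 fold change of 0.076. Csf3r, the G-CSF receptor, rose 1.60-fold, the IL-10 receptor gene Il10ra 1.38-fold, the type I interferon receptor subunit Ifnar2 1.31-fold and the common gamma chain Il2rg 1.28-fold. The receptor genes Osmr and Il4ra fell by 0.57 and 0.29 on the log2 scale, and 4 of the list fell with library-size scaling. Among 25 tested sensors, adaptors and kinases that activate IRFs, 7 rose and 3 fell (median 0.059). Tlr8 and Tlr4 fell, by 0.68 and 0.55 on the log2 scale, while Tlr9 rose 1.88-fold and the kinase gene Irak2 1.24-fold.

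Of 16 tested inhibitors of these pathways 5 rose and 0 fell (median 0.19), against 16.1% and 14.8% of all tested genes. Socs3, which restrains IL-6 signalling, rose 1.39-fold, the phosphatase genes Ptpn2 and Ptpn1 1.26-fold and 1.19-fold, and Socs1, a JAK inhibitor induced by IFN-γ, 1.35-fold. The call of Socs1 was lost without Cd226-/- replicate 1 (log2 fold change 0.38, adjusted p = 0.12, edgeR) and with that library alone (0.52, adjusted p = 0.222), against 0.43 with all libraries. Of 12 partner factors and corepressors 7 rose and 0 fell (median 0.30), or 4 rose when replicate 1 alone stood for Cd226-/-, and 1 fell without that replicate or with library-size scaling. Irf2bp2, a corepressor partner of IRF2, rose 1.40-fold, Batf2, a partner of IRF1, 1.29-fold, and the interferon-induced interactors Nmi and Ifi35 1.2496-fold and 1.22-fold. Spi1, encoding PU.1, was not called (log2 fold change -0.063, adjusted p = 0.335).

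The genes that these factors are known to drive were counted from lists. In the ISGF3 list, 7 of 30 tested rose and 2 fell (median 0.047). Of all tested genes 16.1% were higher, 14.8% lower and 30.9% called in either direction, so this list was called about as often. Isg20 rose 2.16-fold, Isg15 1.60-fold, Ifitm3 1.39-fold and Bst2 1.36-fold, Parp14 and Samd9l fell by 0.28 and 0.26 on the log2 scale, and the other 21 were not called. The number that fell was 6 without Cd226-/- replicate 1 or with library-size scaling and 4 without WT replicate 2. In the IFN-γ and IRF1 list, 9 of 24 rose and 0 fell (median 0.22), with 3 falls without WT replicate 2 or with library-size scaling and 1 fall when replicate 1 alone stood for Cd226-/-. The cytokine subunit gene Il27 rose 2.14-fold, the immunoproteasome gene Psmb8 3.00-fold and Batf2 1.29-fold, and Nlrc5, which activates class I genes, rose 1.21-fold. Nos2 rose 1.16-fold. The guanylate-binding protein genes Gbp2, Gbp3, Gbp4, Gbp5 and Gbp7 were not called (log2 fold changes -0.12, -0.10, 0.0029, 0.23 and -0.10). Iigp1, Igtp and Irgm1 were not called either. Psmb8 was at 11.3 ± 2.41 CPM in Cd226-/- and 3.78 ± 0.398 CPM in WT (SD, n = 3 each). That is a low level beside Psmb10, another immunoproteasome gene, at 265 ± 6.99 CPM in Cd226-/- and 240.5 ± 5.17 CPM in WT. Psmb8 had 8.60, 13.1 and 12.3 CPM in Cd226-/- replicates 1 to 3, and its log2 fold change ran from 1.19 to 1.75 over the alternatives. Tap1, a neighbour of Psmb8 on chromosome 17, had 6.12, 16.6 and 23.6 CPM in Cd226-/- and 5.75, 6.37 and 8.32 CPM in WT and was not called (adjusted p = 0.213, edgeR). Psmb9 had 2.87, 8.15 and 13.2 CPM in Cd226-/- and 3.07, 3.27 and 3.75 CPM in WT. It was not called (adjusted p = 0.205, edgeR), and Cd226-/- replicate 1 lay below every WT library.

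For STAT3 targets, 8 of 20 rose and 1 fell (median 0.14), or 2 fell without Cd226-/- replicate 1 or without the filter on low counts. Il1rn, the IL-1 receptor antagonist, rose 2.14-fold (1442 ± 88.0 CPM in Cd226-/- and 673 ± 29.0 CPM in WT, SD, n = 3 each), the repressor gene Nfil3 1.54-fold and Hif1a 1.21-fold, next to Socs3 above; Il4ra is the member that fell. The list also holds Il10, which was not called (log2 fold change 0.023, adjusted p = 0.957, edgeR). Among IRF8-dependent myeloid genes, 9 of 13 tested rose and 3 fell (median 0.22). The number that rose stayed 9 without Cd226-/- replicate 1 and was 7 when any other single library was left out. It was also 7 with library-size scaling or without the filter on low counts. By DESeq2's Wald test or with the replicate number as a block 8 rose, and 6 rose at an adjusted p under 0.01. Tlr9 rose 1.88-fold, Il18 1.63-fold, the cystatin gene Cst3 1.24-fold and the protease gene Ctsc 1.22-fold. Naip2 and Naip5 were among the 3 that fell, and the number that fell was 1 without WT replicate 3 or with replicate 1 as the only Cd226-/- library. Of 6 tested IRF5-dependent cytokine genes 2 rose (Il12a 2.67-fold and Il12b 1.60-fold) and Il6 fell (log2 fold change -0.49), with 2 falls without WT replicate 3, without the filter on low counts or with the replicate number as a block. Tnf was listed at 0 in all libraries, as were 8 of the 9 type I interferon genes, while Ifnb1 averaged 0.0947 ± 0.0347 CPM in Cd226-/- and 0.112 ± 0.113 CPM in WT (SD, n = 3 each), so none of the 9 was tested. A 0 for Tnf in LPS-treated macrophages is not read here as absence of its RNA: of 63 protein-coding genes within 0.5 Mb of Tnf, 55.6% were listed at 0 in all libraries, against 26.9% of 20463 such genes in the table, 28.1% on chromosome 17 and 20.8% within 0.5 Mb of Psmb8. Across all tested genes 16.1% were higher and 14.8% lower, and the median log2 fold change was -0.0045.

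**Figure D5:**
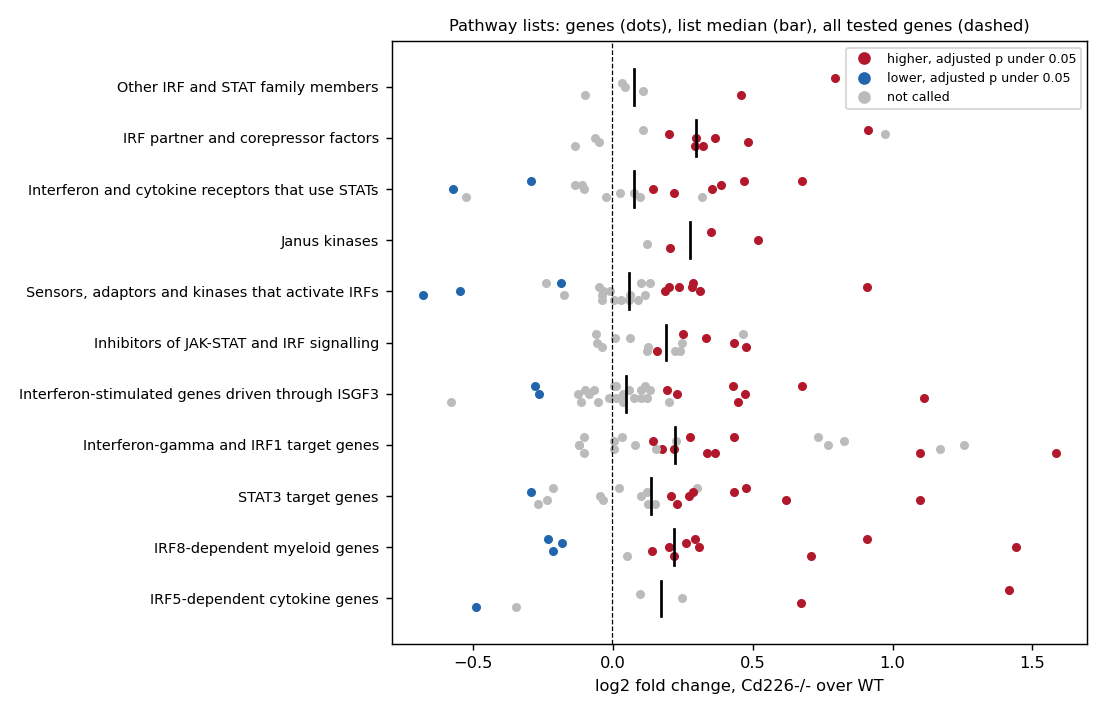
Log2 fold change, Cd226-/- over WT, of the tested genes in 11 lists around the IRF and STAT factors; dots are genes (red higher, blue lower, grey not called), bars are list medians and the dashed line is the median of all tested genes. The medians run from 0.047 (ISGF3 list) to 0.30 (partner factors).

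The 5 genes whose pattern over the 6 libraries was closest to that of Irf8, out of 9019 that averaged 5 CPM or more and had no predicted-gene name, were Plbd1, Map4, Larp1b, Ccdc88b and Ccl5. Likeness was the Euclidean distance between log2 CPM values centred on each gene's mean, and the distances ran from 0.0718 (Plbd1) to 0.1065 (Ccl5). Ccl5, a chemokine gene that IRFs are known to regulate, averaged 4184 ± 281 CPM in Cd226-/- and 2760.3 ± 109.7 CPM in WT (SD, n = 3 each). Plbd1 averaged 272 ± 13.6 CPM in Cd226-/- and 173 ± 10.3 CPM in WT. The folds of the 5 lay between 1.497 and 1.61. Because the 5 were picked for likeness to Irf8 over these same libraries, folds near that of Irf8 follow from the choice. Shared regulation was not tested. Markers of stromal cells, which also use these factors, differed as well: 6 of 7 tested rose, against 16.1% of all tested genes. Their sums were 783 to 817 CPM in Cd226-/- and 499.9 to 581 CPM in WT. Among those that rose were Cxcl12 (4.82-fold), Col1a2 (1.86-fold) and Col3a1 (1.66-fold), while Dcn was not called and Lum was too low to test. The part of stromal cells in the results on Irf1, Stat2 and Stat3 was not tested.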

How the data were processed

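RNA from stimulated BMDM of 3 Cd226-/- and 3 WT samples was sequenced. The authors deposited 1 table of raw read counts per gene symbol, not normalized; per the submitters' processing notes the aligner was HISAT2 and the build GRCm38. The sources used here give no HISAT2 version, counting tool, annotation or strand setting, so reads of overlapping genes are uncertain.

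Columns were assigned by name and 0 were left unused. Genotypes were compared on the counts by edgeR 4.0.16 in R 4.3.3 (filterByExpr, TMM, robust quasi-likelihood F-test, genotype as the only term, two-sided; Benjamini-Hochberg over 13215 genes), and SEs are the log2 fold change over the square root of F. The biological coefficient of variation was 6.75%. CPM uses TMM-scaled library sizes; before that scaling 1 count was worth 0.0462 to 0.0594 CPM. The steps were tested on simulated data. Alternatives used DESeq2 1.42.0, limma 3.58.1 (voom), other scalings and filters, a replicate block, an adjusted p under 0.01 and fewer libraries. Members and the 12 pathway lists (182 genes, 1 without a row) were chosen with earlier results of these data known. Named genes were the members, Cd226, the other family genes, up to 4 called genes of each list by p (the 2 of highest mean CPM where fewer than 2 were called) and the 5 nearest patterns; any other gene or marker was named after its values were seen. Some genes of the lists are not reported here. RefSeq (GRCm38.p6) gave positions and promoters.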

Additional observations from a re-analysis of the deposited data

How the results depend on the processing

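Under the 15 alternatives the 5 members that rose kept their direction and call in every one. The number of members that fell was 0 with DESeq2's Wald test and at an adjusted p under 0.01, and 0 to 1 when 1 library was left out, because the call of Irf9 was lost. At an adjusted p under 0.01, which is a stricter threshold by construction, 2636 genes were called and 1167 were lower, against 4086 and 1956. Leaving out 1 library gave 3263 to 4379 called genes, 1769 to 2315 higher and 1488 to 2064 lower.

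Signs turned for genes that were not called: Irf2 (0.027) when replicate 1 alone stood for Cd226-/-, and Stat5b with library-size scaling (-0.022), when replicate 1 alone stood for Cd226-/- (-0.0045) and when 1 library was left out (-0.0088 to 0.0891, with -0.0015 without Cd226-/- replicate 2). The cause was not tested. Same-numbered libraries showed no shared deviation over all tested genes (correlations 0.0105, -0.0128 and 0.0151). The labels do not say whether replicate numbers pair the samples, and these correlations cannot exclude it. With the replicate number as a block 4137 genes were called (2185 higher and 1952 lower), with 5 members higher and 1 lower. Cd226 and Ifnb1 had too few counts for a firm value, and whether zeros such as that of Tnf come from the counting was not tested.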

Other observations

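The gene Tnpo3, which encodes a nuclear import receptor and shares 9.48% of the exon bases of Irf5, fell (83.9 ± 3.34 CPM in Cd226-/- and 96.9 ± 2.06 CPM in WT, SD, n = 3 each; log2 fold change -0.21 ± 0.054 (SE), adjusted p = 0.00541, edgeR), while Irf5 was not called. Phrf1 and Bcl2l12, annotated neighbours of Irf7 and Irf3, were not called (log2 fold changes 0.086 and -0.022).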
